A study of Mus musculus with 6 samples.

Results

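In this platelet transcriptome, 9 transcription factor genes of the megakaryocyte lineage were followed, namely Gata1, Gata2, Zfpm1, Nfe2, Fli1, Runx1, Tal1, Gfi1b and Lyl1. They were chosen by name, as 9 of the 14975 genes listed in the table. No cutoff on measured values was used, but earlier results of these data were known. RNA-seq was performed on peripheral blood platelets from mice on a C57BL/6 background, with 3 libraries labelled WT, called control here, and 3 labelled AML, called pre-AML here. Both groups were adult female mice that had been irradiated and transplanted, and platelets were taken 1 week after transplantation. Control mice received normal bone marrow. Pre-AML mice received GFP+ cells, recovered from primary recipients, that carried a retroviral construct of MLL-AF9, a fusion oncogene found in acute myeloid leukaemia. The oncogene was thus carried by the transplanted cells and was not driven by a megakaryocyte promoter, and platelets of host and of graft origin were not separated. CD45+ and Ter119+ cells, which are leukocytes and erythroid cells, had been depleted from the platelets. The study's methods give 3 independent mice per group, whereas the labels give 2 replicates per group and pools of 3 to 4 mice, so the p-values given here measure only the spread between these libraries.

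Platelets have no nucleus, and the mRNA they hold was passed to them by the megakaryocyte from which they were shed. GATA1 and its cofactor FOG1, the product of Zfpm1, drive megakaryocyte maturation, while GATA2 acts earlier, in stem and progenitor cells. NF-E2, of which Nfe2 encodes the large subunit, is required for platelet release, and FLI1 and RUNX1 bind the regulatory elements of many platelet genes. TAL1 and LYL1 are related basic helix-loop-helix factors, and GFI1B is a repressor needed by the megakaryocytic and erythroid lineages.

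Of these genes, 7 were matched by symbol to RefSeq promoters on build GRCm38.p6, with 10 promoters between them, and the 250 bases before each start site were searched on both strands. The GATA motif was spelled AGATAA, where the first letter may also be T and the last may also be G. It was found in 2 of the 10, that of Gfi1b and a window of Tal1, and in 26.5% of all 32851 promoter windows of this length. The further Tal1 window (chr4:115057561-115057810, plus strand) held no match. The ETS core CCGGAA, the letters bound by the FLI1 family, was found in 2 of the 10 and in 12.0% of all windows. The 2 were that of Lyl1 and a window of Runx1, while the further Runx1 window (chr16:92826075-92826324, minus strand) held no match. The RUNX motif TGTGGT, the NF-E2 motif TGAGTCA and the TAL1 E-box CAGATG were found in 0 of the 10 and in 14.0%, 4.46% and 14.4% of all windows, respectively. The windows of Gfi1b (chr2:28621983-28622232, minus strand), Tal1 (chr4:115056176-115056425, plus strand) and Gata1 (chrX:7967911-7968160, minus strand) are printed, Gfi1b and Tal1 because they hold the GATA letters and Gata1 because its product binds such letters. Each runs 5′ to 3′ on the strand of the gene up to the base before the start site, with GATA matches in capitals.
Gfi1b: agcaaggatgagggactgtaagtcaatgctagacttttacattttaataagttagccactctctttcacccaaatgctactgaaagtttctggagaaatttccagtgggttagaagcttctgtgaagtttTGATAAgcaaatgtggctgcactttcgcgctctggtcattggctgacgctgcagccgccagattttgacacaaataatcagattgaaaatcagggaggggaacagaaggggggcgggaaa
Tal1: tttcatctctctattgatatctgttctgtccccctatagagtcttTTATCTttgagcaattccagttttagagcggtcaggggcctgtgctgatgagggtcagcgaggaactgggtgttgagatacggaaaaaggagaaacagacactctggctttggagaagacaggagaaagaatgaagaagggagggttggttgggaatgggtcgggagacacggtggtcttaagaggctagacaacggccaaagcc
Gata1: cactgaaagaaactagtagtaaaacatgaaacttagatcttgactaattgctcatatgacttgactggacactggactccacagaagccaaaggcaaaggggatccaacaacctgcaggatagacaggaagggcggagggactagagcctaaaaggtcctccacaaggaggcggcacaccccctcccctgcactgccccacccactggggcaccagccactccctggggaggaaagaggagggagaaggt
The match in Gfi1b lay at positions -120 to -115 from the start site, and that in Tal1 at -205 to -200 on the opposite strand. These are matches of letters and no measurement of binding.

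The 6 libraries held 11936010 to 17778985 reads on listed genes, as recovered from the FPKM values (fragments scaled to exon length and to the size of the library) and the exon lengths. The third pre-AML library stood apart, with a Spearman correlation of 0.842 to 0.880 with the others, which had 0.962 to 0.973 among themselves. In that library the size used to scale the FPKM values was 1.31 times the reads on listed genes. It was 0.983 to 1.01 times in the other 5. Compared with scaling by those reads, this lowers the FPKM of every gene in the third pre-AML library. A size below the reads on listed genes is not a plain read total, and how it was set is not given. The 8 platelet markers, led by the chemokine genes Pf4 and Ppbp, summed to 88558 to 112540 FPKM in controls and to 60460 to 91019 FPKM in pre-AML. The first and second pre-AML sums, 89782 and 91019 FPKM, lay within the control range, and the third was the lowest. Pf4 and Ppbp had control means of 66487 and 17958 FPKM, so the sum mostly follows these genes. In the limma fit described below, 3 of the 8 markers changed upwards and 5 downwards, with a median log2 fold change of -0.10. Among leukocyte markers with a control mean under 1 FPKM, the 12 of monocytes or macrophages summed to 0.441 to 1.70 FPKM in controls and to 5.63, 7.79 and 495 FPKM in the 3 pre-AML libraries. The 9 of B cells summed to 1.38 to 1.91 FPKM in controls and to 0.928, 14.2 and 140.7 FPKM in pre-AML, and the 11 of T or NK cells to 0.209 to 0.871 FPKM and to 11.7, 6.59 and 22.5 FPKM. The third pre-AML library was the highest for each of these 3 sets. The 8 such markers of neutrophils summed to 0.723 to 1.65 FPKM in controls and to 1.11, 0.922 and 1.68 FPKM in pre-AML. The level limit left out abundant markers, among them Lyz2, Fcer1g and Nkg7. With all markers, the monocyte or macrophage sum was 4665 to 5317 FPKM in controls and 4872 to 5455 FPKM in pre-AML. That of T or NK cells was 19.2 to 29.1 and 34.5 to 45.1 FPKM, and that of B cells 2.66 to 2.95 and 1.60 to 308.7 FPKM. The part of such cells in the values of the transcription factors was not tested, and in bulk samples fewer cells of a type and less RNA per cell cannot be told apart.

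Messenger RNA of 8 of the 9 transcription factors was present at a mean above 10 FPKM in control platelets, and the pre-AML libraries lay within or across the control range for all 9. Differences were tested with limma-trend on log2(FPKM + 1) over the 4412 genes whose mean reached 1 FPKM, with p-values adjusted over all of them by Benjamini-Hochberg, and each fold change is pre-AML over control on that scale. Zfpm1 was below this minimum. Of the 8 factors tested, 0 passed an adjusted p of 0.05, where 0.0227% of all tested genes passed as higher (1 gene, the granzyme gene Gzma) and 0% as lower. At an unadjusted p under 0.05 the count was again 0 of 8, against 9.09% of tested genes (2.56% higher and 6.53% lower). It was 1 of 8, as higher, in 3 of the 15 alternatives, Runx1 in 2 of them and Lyl1 in 1. With libraries scaled to recovered reads (Runx1), 254 of 4518 genes were higher and 256 lower at that level. The counts were 87 and 190 of 4397 with length and GC trends removed (Runx1), and 100 and 193 of 4431 without the third control (Lyl1). Control and pre-AML values did not overlap for 0 of the 9 factors, and for 18.9% of all tested genes (6.14% higher and 12.8% lower). The fitted change was above 0 for 5 of the 8 factors and for 41.5% of tested genes. That count ran from 1 of 8 with trends of length and GC content removed (44.5% of tested genes) to 7 of 8 with array weights (47.4%). The change had a median of 0.05 over the 8 factors and of -0.06 over all tested genes. Without the third pre-AML library, again 0 of the 8 passed the threshold, the medians were 0.13 and -0.03, and the pre-AML values of Nfe2 and Runx1 lay above all control values, as 2 of 8 factors (11.5% of tested genes) with 0 of 8 lower (15.7%).

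Nfe2 was the most abundant of the factors and lay within a narrow range. Its level (Entrez gene 18022, chr15:103248212-103258403, minus strand) was 124.9, 114.6 and 130.8 FPKM in controls and 132.9, 132.0 and 113.8 FPKM in pre-AML, with means of 123.4 ± 8.16 and 126.2 ± 10.8 FPKM (SD, n = 3 each). The first and second pre-AML libraries were the highest of the 6 and the third was the lowest. The log2 fold change by limma was 0.03 (SE 0.13, 95% interval -0.27 to 0.34, adjusted p = 0.940). At 4380 to 7931 reads per library, the counting error of Nfe2 was at most 1.51%, below its coefficient of variation between replicates of 6.61% in controls and 8.56% in pre-AML.

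Gata1, the X-linked gene of the main erythroid and megakaryocytic GATA factor (14460, chrX:7959260-7978071, minus strand), was next. It was at 77.6, 67.7 and 94.1 FPKM in controls and at 81.9, 85.5 and 64.4 FPKM in pre-AML, with means of 79.8 ± 13.3 and 77.3 ± 11.3 FPKM. The third control was the highest and the third pre-AML library the lowest of the 6. The log2 fold change was -0.04 (SE 0.17, interval -0.44 to 0.35, adjusted p = 0.935 by limma), but its sign was not stable, since with libraries scaled to their recovered reads it was 0.09. Gata2, the related factor of earlier progenitors (14461, chr6:88193891-88207032, plus strand), was at 15.2, 17.9 and 24.1 FPKM in controls and at 21.1, 22.6 and 17.9 FPKM in pre-AML. The control values of Gata2 enclosed those of pre-AML, with means of 19.1 ± 4.59 and 20.5 ± 2.42 FPKM, respectively. For Gata2 the log2 fold change was 0.12 (SE 0.19, interval -0.31 to 0.55, adjusted p = 0.804 by limma).

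Gfi1b (14582, chr2:28609450-28621982, minus strand), whose promoter window holds a GATA match, was at 35.7, 46.8 and 51.7 FPKM in controls and at 49.2, 49.7 and 40.7 FPKM in pre-AML. The first control was the lowest and the third control the highest of the 6 libraries, with means of 44.7 ± 8.20 FPKM in controls and 46.5 ± 5.05 FPKM in pre-AML. For Gfi1b the log2 fold change was 0.07 (SE 0.17, interval -0.33 to 0.46, adjusted p = 0.890 by limma). Zfpm1, the gene of the GATA1 cofactor FOG1 (22761, chr8:122282141-122337251, plus strand), differed from the others in abundance. It was at 0.900, 0.710 and 0.984 FPKM in controls and at 0.815, 1.14 and 0.440 FPKM in pre-AML, from 37, 35 and 41 reads and from 38, 60 and 36 reads. Both the highest and the lowest library were pre-AML, and the counting error alone was 12.9% to 16.9%. In a fit with no minimum level, the log2 fold change of Zfpm1 was -0.07 (SE 0.19, interval -0.51 to 0.37, adjusted p = 0.897 by limma).

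Fli1, an ETS factor (14247, chr9:32422204-32542861, minus strand), was at 27.0, 28.6 and 35.4 FPKM in controls and at 27.8, 28.4 and 23.7 FPKM in pre-AML. The third control stood above the other 5 libraries and the third pre-AML library below them, while the remaining 4 lay close together. The log2 fold change of Fli1 was -0.18 (SE 0.15, interval -0.53 to 0.17, adjusted p = 0.637 by limma), and -0.03 with trends of length and GC content removed. Runx1 (12394, chr16:92601466-92826149, minus strand) was at 10.5, 9.64 and 11.8 FPKM in controls and at 12.5, 12.8 and 9.97 FPKM in pre-AML. The first and second pre-AML libraries exceeded every control, whereas the third lay among the controls. Runx1 had a log2 fold change of 0.13 (SE 0.15, interval -0.21 to 0.47, adjusted p = 0.720 by limma). Both genes overlap annotated antisense transcripts, from which unstranded reads cannot be told apart.

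Tal1 (21349, chr4:115056426-115071755, plus strand) was at 27.0, 21.2 and 28.6 FPKM in controls and at 24.9, 25.7 and 19.2 FPKM in pre-AML, with means of 25.6 ± 3.87 and 23.3 ± 3.52 FPKM. The third pre-AML library was the lowest of the 6, and the other pre-AML libraries lay inside the control range. Tal1 had a log2 fold change of -0.13 (SE 0.17, interval -0.52 to 0.26, adjusted p = 0.758 by limma). Lyl1, its relative (17095, chr8:84701457-84704715, plus strand), was at 10.5, 8.98 and 14.1 FPKM in controls and at 12.9, 12.9 and 14.5 FPKM in pre-AML. Lyl1 had its highest value in the third pre-AML library, and the third control exceeded the other pre-AML libraries. Lyl1 had a log2 fold change of 0.26 (SE 0.17, interval -0.14 to 0.66, unadjusted p = 0.171, adjusted p = 0.570 by limma). Lyl1 lies within the span of Nfix, a gene on the other strand that was listed at 0.134 to 0.236 FPKM.

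**Figure D1:**
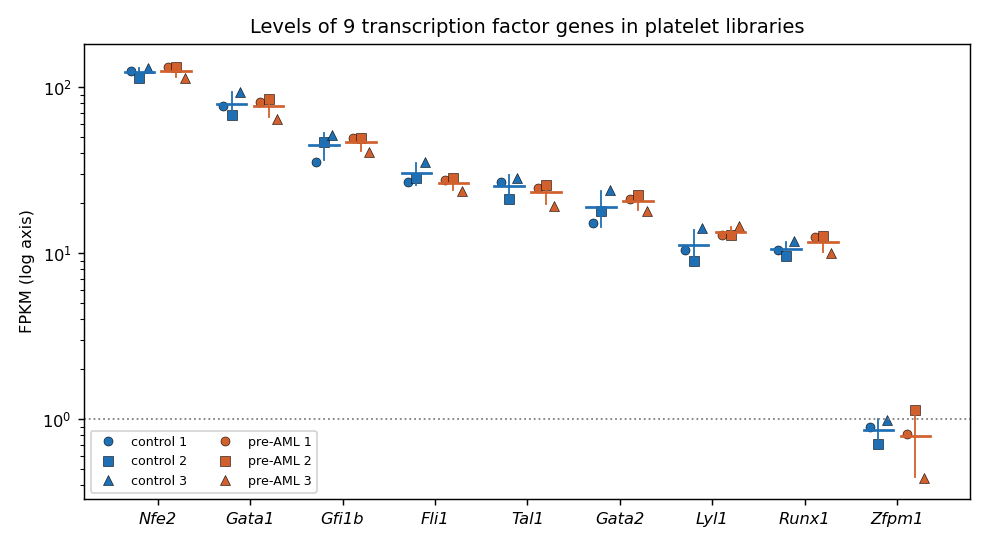
FPKM of the 9 transcription factor genes on a log axis, with a point for each of the 3 control and 3 pre-AML libraries, a horizontal bar at the group mean and a vertical bar of 1 SD to either side. The groups overlap for every gene, and control means run from 123.4 FPKM for Nfe2 to 0.865 FPKM for Zfpm1, below the dotted line at 1 FPKM.

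**Figure D2:**
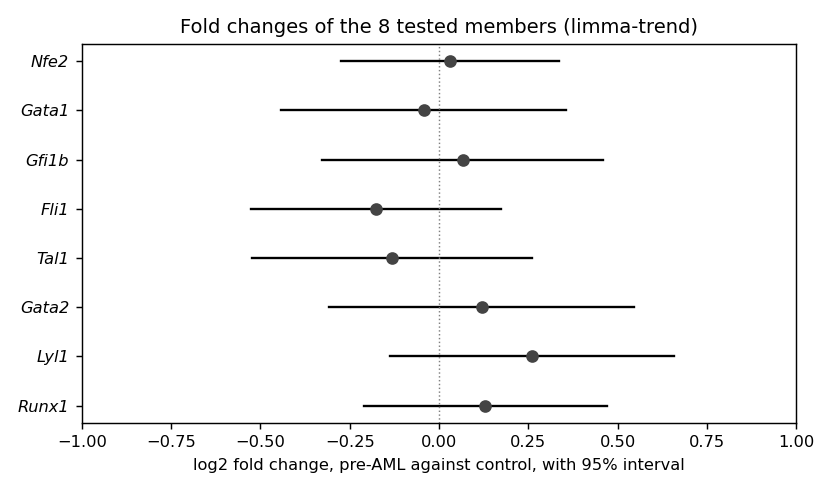
Log2 fold change, pre-AML over control on log2(FPKM + 1), of the 8 genes tested, with bars for the 95% interval from limma-trend. Every interval includes 0, and the estimates run from -0.18 for Fli1 to 0.26 for Lyl1.

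The order of abundance of the factors was nearly constant over the libraries. Compared per length, as FPKM, it ran Nfe2, Gata1, Gfi1b, Fli1, Tal1, Gata2, Lyl1, Runx1 and Zfpm1 by control mean. Nfe2 stood at rank 329 of the listed genes in controls, Gata1 at 435 and Runx1 at 1476, whereas Zfpm1 stood at 4491. Of the 8 pairs of neighbours in this order, 6 kept it in all 6 libraries, while Fli1 over Tal1 and Lyl1 over Runx1 held in 5 of 6. The ranges over all libraries overlapped for Fli1 and Tal1, for Tal1 and Gata2, and for Lyl1 and Runx1. Within a library, Tal1 was above Gata2 in all 6, by 1.08 to 1.77 times, whereas Fli1 and Tal1, and Lyl1 and Runx1, changed places. The step from Runx1 to Zfpm1, of 11.2 to 22.6 times, was the widest.

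The extremes of the factors fell mostly in a pair of libraries. The third control was the highest of the 6 for 5 of the 8 tested factors and for 20.3% of all tested genes. The third pre-AML library was the lowest for 4 of the 8 factors and for 43.8% of all tested genes. With every library scaled to its recovered reads in place of the size behind its FPKM values, that library was no longer the lowest for any of the 8. Runx1 was then at 10.3, 9.77 and 11.7 FPKM in controls and at 12.3, 12.9 and 13.1 FPKM in pre-AML, and Nfe2 at 122.8, 116.3 and 129.9 FPKM and at 130.6, 133.6 and 149.3 FPKM. On this scale, every pre-AML value of Runx1 and Nfe2 was above every control value, which holds for 2 of the 8 factors and for 10.9% of tested genes, and 0 of the 8 were lower without overlap, against 9.54%. The log2 fold change of Runx1 on this scale was 0.25 (adjusted p = 0.437 by limma) and that of Nfe2 was 0.16 (adjusted p = 0.483), so the separated values did not pass the test over all genes. The scaling moved the median of all tested genes from -0.06 to 0.05 and that of the 8 factors from 0.05 to 0.18. Which scaling is nearer to the true levels was not tested.

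**Figure D3:**
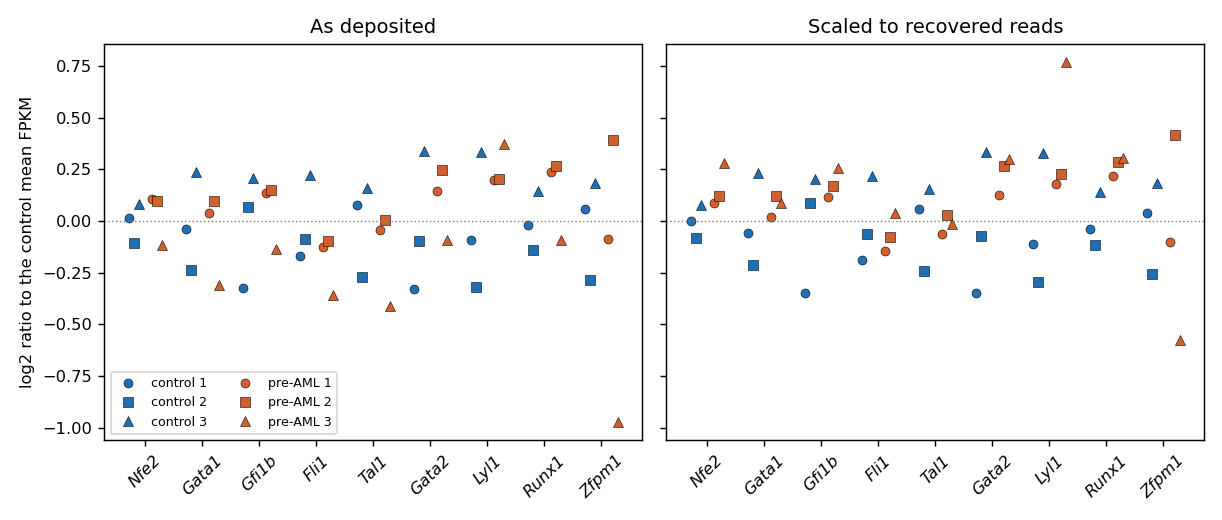
Log2 ratio of the FPKM in each of the 6 libraries to the control mean of that gene, as deposited and after scaling each library to its recovered reads. The third pre-AML library, drawn as orange triangles, moves upwards for all 9 genes, and after scaling the pre-AML values of Nfe2 and Runx1 lie above all their control values.

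Ratios between factors in the same library do not depend on its scaling. Fli1 over Runx1 was 2.57, 2.97 and 3.01 in controls and 2.22, 2.22 and 2.38 in pre-AML, so the ratio was lower in every pre-AML library, with a log2 difference of -0.32. Tal1 over Lyl1 was 2.57, 2.36 and 2.02 in controls and 1.93, 1.99 and 1.33 in pre-AML, again lower in each, with a log2 difference of -0.42 that rested in part on the third pre-AML library, without which it was -0.23. With trends of length and GC content removed, the difference of Tal1 over Lyl1 was -0.16 and that of Fli1 over Runx1 was -0.36. Gata1 over Gata2 was 5.10, 3.79 and 3.90 in controls and 3.88, 3.78 and 3.61 in pre-AML, and its groups overlapped. These ratios were picked after values had been seen, and all 28 pairs of the 8 tested factors were therefore compared. The groups did not overlap for 11 of the 28 (39.3%), against 26.9% of all pairs of genes whose mean reached 10 FPKM. Pairs that share a gene are not independent, and Fli1 took part in 5 of the 11, Tal1 in 4, and Gata1, Runx1 and Lyl1 in 3 each. For each of these 11 pairs the two-sided exact permutation test gave p = 0.1, the smallest that 3 against 3 libraries allow, and an adjusted p of 0.255 over the 28.

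**Figure D4:**
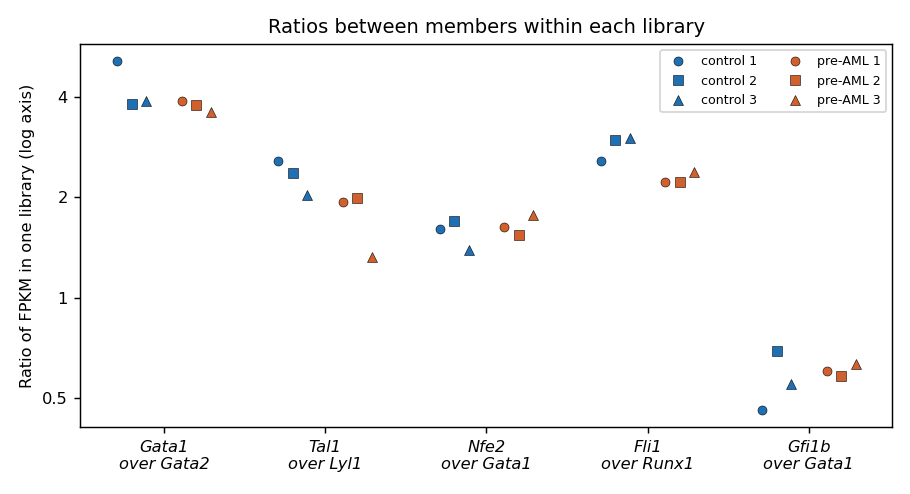
Ratio of the FPKM of a pair of factors within each library, on a log axis, with a point for each of the 3 control and 3 pre-AML libraries. Fli1 over Runx1 runs from 2.57 to 3.01 in controls and from 2.22 to 2.38 in pre-AML, while Gata1 over Gata2, Nfe2 over Gata1 and Gfi1b over Gata1 overlap.

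The levels of the factors mostly moved together from library to library, but so did those of many other genes. Over the 6 libraries, Pearson's r of log2(FPKM + 1) was above 0 in 35 of 36 pairs of factors, with a median of 0.63 and a range from -0.05 for Zfpm1 and Lyl1 to 0.94 for Nfe2 and Runx1. These values describe 6 points that share the scaling of each library and include both groups. Among 1516 genes whose mean reached 10 FPKM, those most like Gata1 were Aagab (0.97), Ndrg1 (0.97) and Lcp2 (0.96), and those most like Nfe2 were Aagab (0.97), Gpx4 (0.97) and Ctsd (0.96). In likeness to Gata1 the other tested factors ran from rank 21 (Tal1) to rank 1033 (Lyl1), with Gfi1b (0.53) at 657. In likeness to Nfe2 they ran from rank 11 (Runx1) to rank 1014 (Lyl1).

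The factors stood far above most of their partners and relatives in control platelets. The median control mean was 25.6 FPKM over the 9 factors, 0.309 FPKM over 20 genes of partners and cofactors, 0.129 FPKM over 13 family relatives, 0.366 FPKM over 19 other megakaryocyte regulators and 0.183 FPKM over all listed genes. At least 10 FPKM was reached by 8 of the 9 factors, by 0 of the 20 partners and cofactors and by 2 of the 13 relatives. The relatives at that level were Elf1, an ETS factor, at 52.4 ± 4.32 FPKM in controls and 46.1 ± 8.99 FPKM in pre-AML, and Nfe2l2, which encodes the oxidative stress factor NRF2, at 16.5 ± 2.32 and 14.9 ± 1.65 FPKM. The small Maf proteins pair with NF-E2, and their genes Mafg (7.97 ± 1.42 and 8.17 ± 0.606 FPKM) and Mafk (2.62 ± 0.329 and 3.04 ± 1.14 FPKM) were the most abundant partners. Lmo2, which bridges TAL1 and GATA factors, was at 1.98 ± 0.634 and 1.41 ± 0.124 FPKM. Cbfb, the gene of the obligate partner of RUNX1, was listed at 0 in the 3 controls and at 0.0432, 0.152 and 0.357 FPKM in pre-AML, and was named after its values had been seen. These values are near the floor and Cbfb was too low to be tested. For scale, 3 reads on a gene of 2 kb are 0.113, 0.0994 and 0.0643 FPKM in the 3 pre-AML libraries. Of the 14975 listed genes, 1484 were at 0 in all 3 controls. Hhex (8.53 ± 0.169 and 8.10 ± 1.54 FPKM) and Mef2c (6.19 ± 0.573 and 5.87 ± 0.957 FPKM) led the other regulators.

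None of these lists held a gene that passed an adjusted p of 0.05 by limma, as for the factors themselves. Of the partners and cofactors 6 were tested, with 4 fitted changes above 0 and 2 below, and the smallest unadjusted p values were those of Bach1 (log2 fold change -0.36, adjusted p = 0.526) and Lmo2 (-0.29, adjusted p = 0.573). Of the relatives 3 were tested, with 1 above 0 and 2 below, led by Nfe2l1 (0.35, adjusted p = 0.531) and Elf1 (-0.20, adjusted p = 0.637). Of the other regulators 6 were tested, with 3 above 0 and 3 below, led by Mef2a (-0.31, adjusted p = 0.522) and Klf2 (1.005, adjusted p = 0.536). Klf2 was at 6.89 FPKM in the third pre-AML library and at most 0.731 FPKM in the other 5. That library also held the highest marker sums of monocytes or macrophages, of B cells and of T or NK cells. In these 3 lists, 0 genes had an unadjusted p under 0.05.

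Genes that the factors are known to regulate were far more abundant. The list of 26 megakaryocyte and platelet target genes was drawn up with earlier results of these data known. These genes had a median control mean of 625.7 FPKM, and all 26 were tested. Their fitted change was below 0 for 19 and above 0 for 7, with a median of -0.15, against 0.05 for the 8 factors and -0.06 for all tested genes. At an unadjusted p under 0.05 there were 4 of 26 lower and 0 higher, against 6.53% and 2.56% of all tested genes, and at an adjusted p of 0.05 none in either direction by limma. Without the third pre-AML library, 9 of the 26 were above 0 and 17 below, where 45.04% of all tested genes were above 0. The medians were -0.08 for the 26 and -0.03 for all tested genes. At an unadjusted p under 0.05, 3 of the 26 were then lower and 2 higher, against 5.21% and 3.76% of all tested genes, and 0 of the 8 factors. Pf4, the gene of platelet factor 4, was at 66487 ± 11250 FPKM in controls and 52520 ± 12450 FPKM in pre-AML (-0.36, adjusted p = 0.534). Ppbp (-0.39, adjusted p = 0.522), Plek, a substrate of protein kinase C (-0.59, SE 0.21, adjusted p = 0.522), and Rab27b, a GTPase of granule release (-0.49, adjusted p = 0.522), also had lower means. Plek was at 940.8, 784.9 and 890.5 FPKM in controls and at 685.2, 684.0 and 412.2 FPKM in pre-AML, with no overlap. Of the 26 genes, 7 were lower without overlap and 1, Myl9, was higher, against 12.8% and 6.14% of all tested genes. The lowest value of Plek was in the third pre-AML library, which was the lowest for 43.8% of all tested genes.

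Of 28 genes of thrombopoietin signalling, 27 were in the table and 22 were tested, with a median control mean of 3.71 FPKM over the 27. The fitted change was above 0 for 7 and below 0 for 15, with a median of -0.07, where 41.5% of all tested genes were above 0 with a median of -0.06. Without overlap, 2 of the 22 were lower and 0 higher, against 12.8% and 6.14% of all tested genes. None passed an adjusted p of 0.05 by limma. The most abundant were Lyn, a Src family kinase (211 ± 14.5 and 182 ± 29.8 FPKM, adjusted p = 0.587 by limma), and Sh2b3, which encodes the inhibitor LNK (56.1 ± 8.14 and 55.9 ± 7.87 FPKM).

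**Figure D5:**
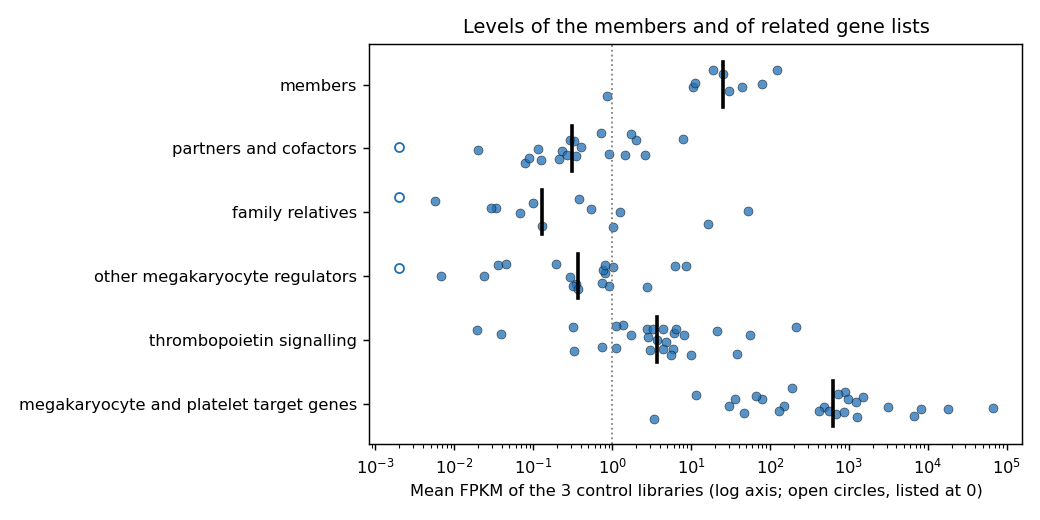
Mean FPKM over the 3 control libraries on a log axis, with a point for each gene of the 9 transcription factors ("members") and of the 5 related lists, a bar at each median, and open circles for genes listed at 0. The factors have a median of 25.6 FPKM, above those of partners (0.309 FPKM) and relatives (0.129 FPKM) and below that of the target genes (625.7 FPKM).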

How the data were processed

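Platelet RNA of 3 control and 3 pre-AML libraries had been amplified by SMART-Seq2, which does not keep the strand, tagmented with Nextera XT and sequenced. The deposited table holds FPKM per gene, which the authors made after mapping to mm10; the submitters' processing notes name STAR and DESeq2, and the counting program is not given in the sources used here. Counts were not used here, so limma 3.58.1 (R 4.3.3) was run in place of a count test, as limma-trend on log2(FPKM + 1) for the 4412 genes whose mean reached 1 FPKM, two-sided and adjusted by Benjamini-Hochberg (threshold 0.05). The script was tested on simulated data.

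Read numbers were recovered from FPKM and GENCODE exon lengths, known for 14911 genes. Of these values, 85.0% were whole within 0.02 reads or within a small relative tolerance, which large counts pass more easily. Those of Gata2 and Lyl1 were rounded. They cover counting error only. Ratios were compared with exact permutation tests, and motifs were searched with Python 3.11.15.

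The genes and lists were chosen with earlier results of these data known. All 9 factors are named, and of each list the 2 genes with the highest mean and the 2 with the smallest unadjusted p, except that the latter are not reported here for thrombopoietin signalling. The 3 genes most like Gata1 and Nfe2 were taken by Pearson's r. Alternatives changed the pseudocount, filter, scaling, model and libraries, and counts without the third pre-AML library were added after seeing the data.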

Additional observations from a re-analysis of the deposited data

How the results depend on the processing

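Under 15 alternatives, 0 of the 8 tested factors passed the threshold in either direction, and their median change stayed between -0.04 and 0.18. The lowest adjusted p of any factor was 0.304, for Runx1 with limma's array weights. The sign of small changes was not stable. Gata1 turned to 0.087 with libraries scaled to recovered reads, 0.074 with quantile normalization, 0.059 with voom on recovered reads and 0.10 with array weights, which also turned Tal1 to 0.019. Removing trends with length and GC content gave -6.7e-05 for Gata2, -0.0056 for Nfe2, -0.17 for Gfi1b and -0.017 for Lyl1, and left 1 of the 8 factors above 0. That number was 3 without the first control and 7 with array weights. Of all tested genes, 44.5% were above 0 with those trends removed, 42.8% without the first control and 47.4% with array weights. At an unadjusted p under 0.05, 1 factor was counted with libraries scaled to recovered reads (Runx1, adjusted p = 0.437), with length and GC trends removed (Runx1, adjusted p = 0.723) and without the third control (Lyl1, adjusted p = 0.689). All were higher, as were 254 of 4518, 87 of 4397 and 100 of 4431 tested genes at that level, respectively. Leaving out 1 library at a time gave -0.15 to 0.081 for Gata1, -0.023 to 0.29 for Gata2, -0.085 to 0.18 for Gfi1b, -0.021 to 0.10 for Nfe2, -0.20 to 0.081 for Zfpm1, -0.25 to -0.063 for Fli1, -0.26 to -0.0058 for Tal1, 0.067 to 0.24 for Runx1, 0.13 to 0.43 for Lyl1, -0.0080 to 0.13 for the log2 ratio of Nfe2 over Gata1 and -0.029 to 0.27 for that of Gfi1b over Gata1. The cause of these turns was not tested. The deviations of same-numbered libraries from their group means had r of -0.04, -0.12 and -0.17. Within a group of 3 libraries these deviations sum to 0, so such values cannot decide whether the numbers pair libraries. With the replicate block the median was again 0.05, 0 factors passed and the lowest adjusted p among them was 0.653. Counting error limits Zfpm1, with 35 to 60 reads per library. Over all genes, 0 to 2 passed as higher and 0 as lower in these settings.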
